A study of Mus musculus with 55 samples.

Results

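Astrocytes were followed through 10 genes, chosen by name as markers of these cells, with earlier results of these data known. Gfap, Vim, Serpina3n and C4b are induced in reactive astrocytes, and Aqp4, S100b, Aldh1l1, Slc1a2, Slc1a3 and Gja1 mark astrocytes in general. The deposited tables list 45318 Ensembl identifiers, and all 10 genes were among the 18283 genes with enough counts to be tested. The samples are unpooled RNA from ventral dentate gyrus tissue of 54 male C57/BL6J mice. Juvenile mice were housed in standard housing (SH) or in an enriched environment (EE), and as adults they were left unstressed as controls or underwent chronic social defeat stress (CSDS) by CD-1 aggressors. Defeated mice were classified by their social interaction as resilient (RES) or susceptible (SUS), so that these are groups of behavior and not of treatment. There were 10 SH control, 7 SH RES and 10 SH SUS mice, and 9 mice each of EE control, EE RES and EE SUS. The labels of these mice give no engineered allele and no drug. EE mice shared large cages and SH mice small ones, and the labels do not give the cage, so that mice of a cage entered the tests as separate samples and p-values for housing may be too small.

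Astrocytes tile the hippocampus, take up glutamate and potassium released by neurons, regulate water at the vessel wall and are coupled to each other by gap junctions. After injury or inflammation they become reactive, with more intermediate filament and with secretion of protease inhibitors and complement, in part through cytokine receptors that signal to STAT3. In the dentate gyrus the radial glia-like stem cells of the subgranular zone also contain Gfap, Vim and Slc1a3, so these genes are not exclusive to astrocytes. In a punch of tissue, fewer cells of a type and less RNA per cell cannot be told apart.

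Promoter sequences are shown for some of the members, from 250 bases before to 50 bases after the RefSeq start site, in the build GRCm38.p6. They are Gfap on the minus strand at chr11:102897151-102897450, Serpina3n on the plus strand at chr12:104406458-104406757, Slc1a3 on the minus strand at chr15:8710758-8711057 and Gja1 on the plus strand at chr10:56377050-56377349. Capitals mark matches to the STAT motif TTCNNNGAA or the AP-1 motif TGANTCA, each searched on both strands.
Gfap: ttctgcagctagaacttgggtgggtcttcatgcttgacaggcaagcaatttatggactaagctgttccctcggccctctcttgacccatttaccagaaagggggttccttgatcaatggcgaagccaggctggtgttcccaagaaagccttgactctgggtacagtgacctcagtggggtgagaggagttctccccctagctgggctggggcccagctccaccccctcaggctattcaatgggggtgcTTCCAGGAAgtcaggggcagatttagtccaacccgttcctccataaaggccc
Serpina3n: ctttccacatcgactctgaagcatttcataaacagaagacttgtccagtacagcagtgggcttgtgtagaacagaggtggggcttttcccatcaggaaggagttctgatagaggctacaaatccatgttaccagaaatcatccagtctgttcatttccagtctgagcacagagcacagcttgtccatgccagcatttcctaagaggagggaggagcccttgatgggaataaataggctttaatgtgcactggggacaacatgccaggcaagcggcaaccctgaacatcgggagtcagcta
Slc1a3: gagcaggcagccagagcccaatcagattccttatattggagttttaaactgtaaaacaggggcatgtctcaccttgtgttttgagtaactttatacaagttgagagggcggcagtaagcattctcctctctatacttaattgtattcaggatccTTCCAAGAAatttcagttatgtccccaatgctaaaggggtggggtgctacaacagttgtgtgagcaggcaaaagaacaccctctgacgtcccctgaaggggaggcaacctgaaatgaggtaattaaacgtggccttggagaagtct
Gja1: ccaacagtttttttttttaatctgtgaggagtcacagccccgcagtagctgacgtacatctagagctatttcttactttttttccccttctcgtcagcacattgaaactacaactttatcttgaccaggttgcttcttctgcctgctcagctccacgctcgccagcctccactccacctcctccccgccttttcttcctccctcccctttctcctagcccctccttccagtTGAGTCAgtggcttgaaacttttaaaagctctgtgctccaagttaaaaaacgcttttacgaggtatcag
RefSeq promoters were matched for 8 of the 10 genes, the others being C4b and Aqp4. The motif TTCNNNGAA occurred in 2 of these 8 promoters and in 8.29% of all 32817 mouse promoters of the same length. In Gfap the match TTCCAGGAA ran from position -2 to 7, counted with the RefSeq start site as 1 and without a 0. The GENCODE span of this minus-strand gene reaches further upstream, to 102900912, so that this site need not be its first transcribed base. The match also met the stricter TTCCNGGAA, which 1.15% of all promoters hold and which overlaps the first motif. In Slc1a3 the match TTCCAAGAA lay from -96 to -88. TGANTCA was found in Gja1, from -19 to -13, and in 7.81% of all promoters. The full-length nuclear factor I motif, held by 1.38% of all promoters, matched in 0 of the 8. TATAAA, held by 13.6% of all promoters, matched in Vim from -32 to -27. In Slc1a3 it matched on the other strand, as TTTATA from -161 to -156. A match describes letters in this window and was not tested as a binding site.

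A mouse's library held 16760009 to 24426804 read pairs counted on genes, and that of EE control mouse 9, which was sequenced in 2 runs, held 45872357 in sum. At this depth the raw count of each astrocyte gene was at least 496 in every mouse, so that counting error was small against the spread between mice. Choroid plexus markers, summed over 10 genes, ranged from 18.2 to 1000 CPM (counts scaled to a common library total) across mice, thalamus markers, over 9 genes, from 115 to 729.6 CPM, and oligodendrocyte markers, over 9 genes, from 1010 to 2434 CPM. Dentate granule cell markers, which define the labelled tissue, were present in every mouse with a sum over 10 genes of 679 to 1422 CPM. Samples of a group were taken as separate mice by their titles.

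The members ranked from the 64.8 percentile of all genes tested for C4b to the 99.5 percentile for Slc1a2 by level per length. Levels of different genes were compared only as CPM per kilobase of exon, and the mean over 54 mice was 225.5 ± 16.6 (SD, n = 54) for Slc1a2, the glial glutamate transporter GLT-1. Slc1a3, the glutamate transporter GLAST, followed with 89.1 ± 7.67 (SD, n = 54) CPM per kilobase. Slc1a2 exceeded every other member in every mouse, and the ranges of these 2 transporters did not overlap. Gfap, the glial fibrillary acidic protein of the cytoskeleton, was at 65.9 ± 7.33 CPM per kilobase and S100b, a calcium-binding protein, at 58.7 ± 4.92 (SD, n = 54 each), and Gfap was higher in 44 of 54 mice. Aqp4, the water channel of perivascular endfeet, was at 33.2 ± 3.93 CPM per kilobase and Serpina3n, a secreted protease inhibitor, at 28.5 ± 3.997 (SD, n = 54 each), with overlapping ranges and Aqp4 higher in 42 of 54 mice. Gja1, the gap junction protein connexin 43, was at 18.8 ± 1.63 CPM per kilobase, and Aldh1l1, a folate enzyme, at 14.6 ± 1.117 (SD, n = 54 each). Vim, the intermediate filament vimentin, and C4b, complement component 4, were the lowest, at 7.16 ± 0.930 and 7.06 ± 1.03 CPM per kilobase (SD, n = 54 each). Vim and C4b could not be ordered, since Vim was higher in 34 of 54 mice and the difference of their means was smaller than either SD.

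**Figure D1:**
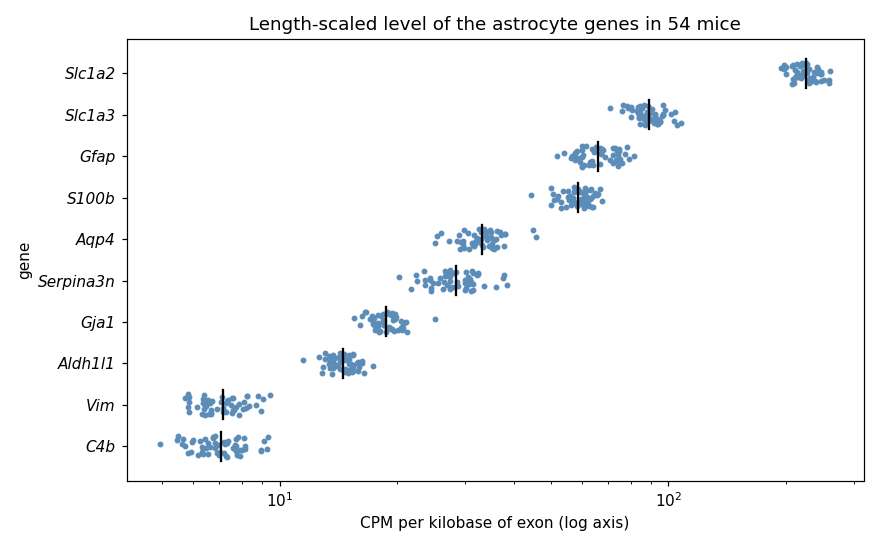
Level of each astrocyte gene in CPM per kilobase of exon on a log axis, with a point for each of 54 mice and a line at the mean. Slc1a2 lies apart from all other genes at 195 to 260.2 CPM per kilobase, and Vim and C4b lie on top of each other at the low end.

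In the GENCODE annotation of GRCm38 the members are protein-coding genes, counted over their exons, and the coordinates of some are given. Slc1a2 (ENSMUSG00000005089) lies on the plus strand at chr2:102658659-102790784, and Slc1a3 (ENSMUSG00000005360) on the minus strand at chr15:8634124-8710764. Gja1 (ENSMUSG00000050953) lies on the plus strand at chr10:56377330-56402513, Gfap (ENSMUSG00000020932) on the minus strand at chr11:102887336-102900912 and Serpina3n (ENSMUSG00000021091) on the plus strand at chr12:104406729-104414329.

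Genes close in sequence to the members could share their reads, and C4a and Serpina3g were far lower than the member they resemble. C4a, a near-identical neighbor of C4b, had a median of 1.51 CPM against 39.8 CPM for C4b, and because pairs that map to both copies are not counted, both values are uncertain. Serpina3g, a paralog in the same cluster as Serpina3n, had a median of 2.39 CPM against 57.9 CPM for Serpina3n, and 5 of the 7 Serpina3 paralogs listed were too low to be tested. The neuronal glutamate transporter Slc1a1 was at a median of 178 CPM, with Slc1a4 at 65.2 CPM. Medians of the other tested paralogs were 25.6 CPM for S100a1, 16.2 CPM for Gjc3, 7.29 CPM for Slc1a6, 6.27 CPM for Aldh1l2, 3.45 CPM for Gjb1, 1.97 CPM for Aqp9 and 1.11 CPM for Slc1a5. Gja5, Serpina3c and Aqp1 had medians of 0.522, 0.506 and 0.391 CPM. Counts on the opposite strand were at most 0.389% of the stranded counts of any member, the highest being for S100b.

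Across the 6 groups no astrocyte gene passed the test, and every member's groups overlapped. With edgeR's quasi-likelihood test over all groups at a Benjamini-Hochberg adjusted p below 0.05, 0 of 10 members were called against 0.35% of all 18283 genes, and limma and DESeq2 also called 0. At an unadjusted p below 0.05, 2 of 10 members passed by each of edgeR, limma and DESeq2, against 11.1% of all genes by edgeR. These were Slc1a3 (adjusted p = 0.158, edgeR) and Slc1a2 (adjusted p = 0.394, edgeR). In each member the highest group minimum lay below the lowest group maximum, for example 763 against 826 CPM in Slc1a3 and 253 against 311 CPM in Gfap.

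**Figure D2:**
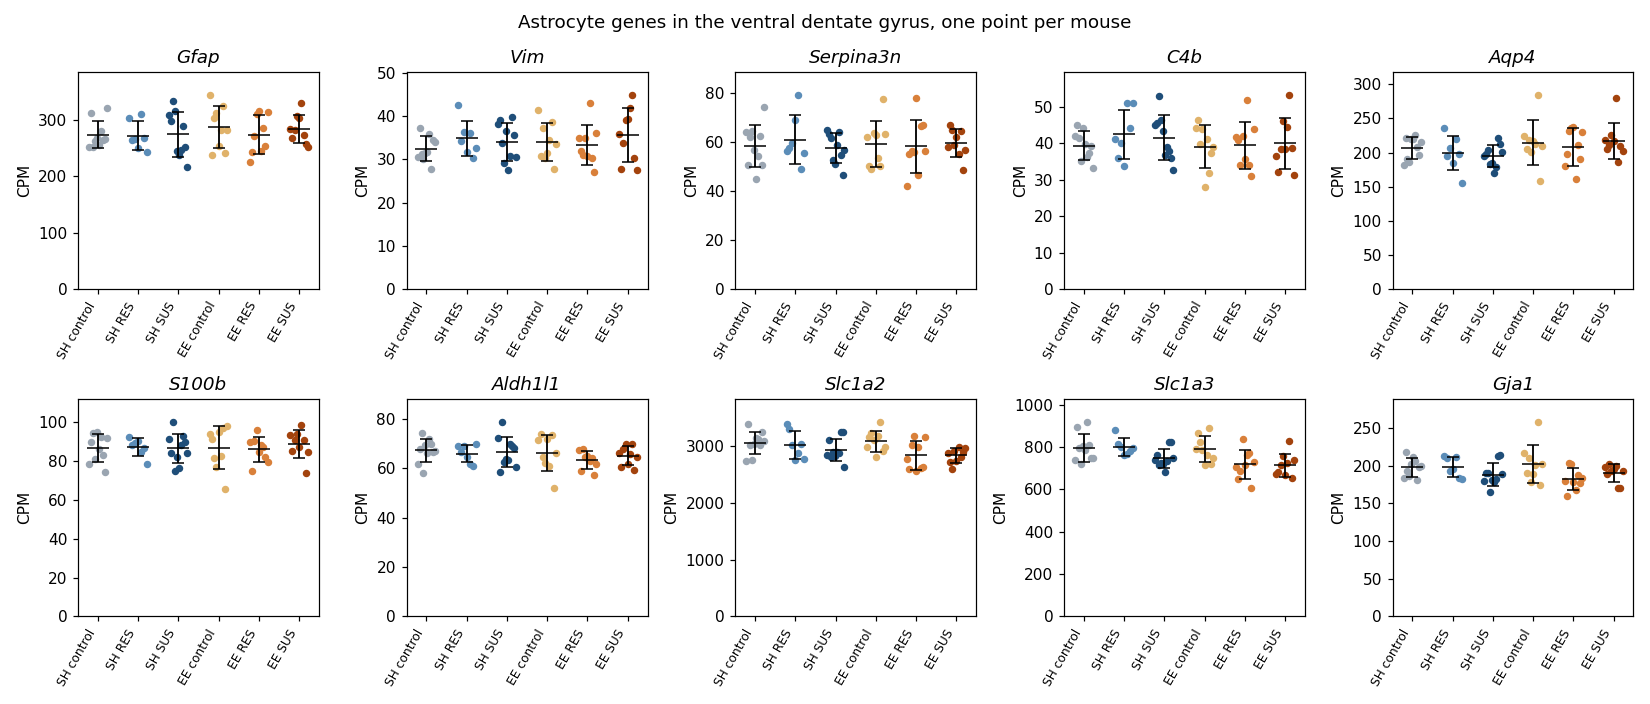
TMM-normalized CPM of the 10 astrocyte genes, with a point for each mouse and the mean and SD of each group in black, on axes that start at 0. The 6 groups overlap in every panel, and Slc1a3 is lowest on average in EE RES and EE SUS mice at 719 and 715 CPM.

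Among the reactive genes, Gfap showed no difference that passed for housing or defeat. In SH its lowest, median and highest values were 253, 265.5 and 321 CPM in control, 243, 266 and 311 CPM in RES and 218, 272 and 334 CPM in SUS mice. In EE they were 238.5, 283 and 344 CPM in control, 227, 271 and 315 CPM in RES and 252, 282 and 330.0 CPM in SUS mice. The highest mouse of all was an EE control and the lowest an SH SUS mouse, and the groups overlapped. The EE minus SH difference was 0.04 on the log2 scale (standard error 0.04, 95% interval -0.04 to 0.13, adjusted p = 0.652, edgeR). The defeated minus control difference was -0.02 (standard error 0.05, interval -0.11 to 0.07, adjusted p = 0.992, edgeR).

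The other reactive genes varied more between mice than Gfap. Vim ranged over 54 mice from 27.1 to 44.8 CPM, with group means from 32.4 ± 2.89 (SD, n = 10) in SH control to 35.6 ± 6.19 CPM (SD, n = 9) in EE SUS mice. Serpina3n ranged from 41.9 to 79.1 CPM, with group means from 57.5 ± 6.19 (SD, n = 10) in SH SUS to 60.9 ± 10.02 CPM (SD, n = 7) in SH RES mice. C4b ranged from 28.1 to 53.2 CPM, with group means from 39.1 ± 5.93 (SD, n = 9) in EE control to 42.4 ± 6.72 CPM (SD, n = 7) in SH RES mice. For all 3 genes the distance between the highest and the lowest group mean was smaller than the SD within the more variable of those groups. Defeated minus control was 0.05 for Vim (standard error 0.05, interval -0.05 to 0.16) and 0.06 for C4b (standard error 0.06, interval -0.06 to 0.18) on the log2 scale, both with an adjusted p of 0.987 from edgeR. With a score of 15 other astrocyte genes as a covariate, the difference of Vim was 0.14 (unadjusted p = 0.00598, adjusted p = 0.521, edgeR). The genes of this score had a median defeat difference of -0.05 themselves, so that this value of Vim is relative to theirs. Serpina3n differed between defeated and control mice by 0.01 on the log2 scale (standard error 0.06, interval -0.11 to 0.12).

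Among the genes of glutamate uptake, Slc1a3 had the smallest p of all members for housing and for defeat. In SH its lowest, median and highest values were 722, 791 and 917 CPM in control, 763, 796 and 883 CPM in RES and 683.5, 737 and 826 CPM in SUS mice. In EE they were 713, 789 and 889.8 CPM in control, 606, 715 and 838 CPM in RES and 654, 714.5 and 827 CPM in SUS mice. Control mice of both housings and SH RES mice had medians close to each other, and the medians of SH SUS and of both defeated EE groups were lower, with overlap throughout. EE minus SH was -0.08 (standard error 0.03, interval -0.14 to -0.02, unadjusted p = 0.011, adjusted p = 0.142, edgeR). Defeated minus control was -0.09 (standard error 0.03, interval -0.15 to -0.03, unadjusted p = 0.00418, adjusted p = 0.823, edgeR). Within EE, Slc1a3 differed from control by -0.14 in SUS (adjusted p = 0.451) and by -0.14 in RES mice (adjusted p = 0.564), and within SH by -0.09 in SUS and by 0.01 in RES mice (adjusted p = 1.0 for each, edgeR). The difference of the defeat effect between EE and SH was -0.10 (standard error 0.06, interval -0.22 to 0.03, adjusted p = 0.777, edgeR).

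With a score of 15 other astrocyte genes, none of them a member, as a covariate, the housing difference of Slc1a3 was -0.09 and passed over all genes (adjusted p = 0.017, edgeR). This was 1 of 66 alternatives, and the adjusted p lay between 0.0735 and 0.22 under the others that give one. In the same model the defeat difference of Slc1a3 was -0.03 (adjusted p = 0.894, edgeR). With scores of choroid plexus and thalamus markers as covariates the housing difference was -0.07 (adjusted p = 0.174) and the defeat difference -0.07 (adjusted p = 0.925, edgeR).

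Slc1a2 was lower by a similar amount in defeated mice and also did not pass. In SH its lowest, median and highest values were 2735, 3061 and 3390 CPM in control, 2752, 3018 and 3391 CPM in RES and 2635, 2882 and 3243 CPM in SUS mice. In EE they were 2812, 3102 and 3417 CPM in control, 2564, 2779 and 3176 CPM in RES and 2601, 2870 and 2982 CPM in SUS mice. No EE SUS mouse reached the median of EE control mice, and the ranges of these groups still overlapped. Defeated minus control was -0.08 (standard error 0.03, interval -0.14 to -0.02, unadjusted p = 0.00694, adjusted p = 0.828, edgeR), and it was -0.03 with the astrocyte score as a covariate. EE minus SH was -0.04 (standard error 0.03, interval -0.10 to 0.01, adjusted p = 0.442, edgeR).

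Gja1, which couples astrocytes into a network, followed the transporters. In SH its lowest, median and highest values were 181, 199 and 219 CPM in control, 182, 196 and 213 CPM in RES and 165.5, 186 and 214 CPM in SUS mice. In EE they were 175, 201 and 258 CPM in control, 159.5, 179.7 and 204 CPM in RES and 171, 194 and 203 CPM in SUS mice. One EE control mouse, number 7, was the highest of all 54 for Gja1, and also for Aqp4 and Slc1a2. Defeated minus control was -0.08 (standard error 0.03, interval -0.14 to -0.01, unadjusted p = 0.02, adjusted p = 0.981, edgeR). Without EE control mouse 7 it was -0.05 (unadjusted p = 0.088, adjusted p = 1.0, edgeR).

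Aqp4 was the member with the largest positive housing difference. In SH its lowest, median and highest values were 182, 212 and 226 CPM in control, 156, 198 and 235.5 CPM in RES and 170.0, 197 and 222 CPM in SUS mice. In EE they were 158, 213 and 284 CPM in control, 162, 211 and 237 CPM in RES and 186, 211 and 279.8 CPM in SUS mice. The highest mouse of EE control and that of EE SUS stood above all other mice, and the groups overlapped. EE minus SH was 0.09 (standard error 0.04, interval 0.003 to 0.18, unadjusted p = 0.0423, adjusted p = 0.262, edgeR). The unadjusted p was 0.05 or more when any of 24 of the 54 mice was left out, with differences of 0.07 to 0.09 on the log2 scale.

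S100b and Aldh1l1 differed little between group means. S100b had group means from 86.0 ± 6.35 (SD, n = 9) in EE RES to 88.8 ± 7.13 CPM (SD, n = 9) in EE SUS mice, and its differences were 0.01 for EE minus SH (interval -0.06 to 0.08) and 0.003 for defeated minus control (interval -0.07 to 0.07) on the log2 scale. With the astrocyte score as a covariate, the defeat difference of S100b was 0.08 (unadjusted p = 0.00778, adjusted p = 0.541, edgeR). This value is relative to the genes of the score, whose median defeat difference was -0.05. Aldh1l1 had group means from 63.3 ± 3.58 (SD, n = 9) in EE RES to 67.4 ± 4.74 CPM (SD, n = 10) in SH control mice, with differences of -0.04 for EE minus SH (interval -0.10 to 0.02) and -0.03 for defeated minus control (interval -0.10 to 0.03). Without the covariate, for neither gene did an interval of these comparisons reach beyond 0.10 on the log2 scale in either direction.

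In the pooled comparisons the members were counted beside all genes. Between EE and SH, 0 of 10 members passed the adjusted test against 2.42% of all genes, and 2 of 10 had an unadjusted p below 0.05 against 17.6% of all genes by edgeR, with 2 by DESeq2 and 1 by limma. Their median difference was -0.01 on the log2 scale, beside 0.004 for all genes tested, with 4 members above and 6 below 0. Between defeated and control mice, 0 of 10 passed against 0.0438% of all genes, and 3 of 10 had an unadjusted p below 0.05, all lower in defeated mice, against 4.81% of all genes by edgeR (3 also by limma and DESeq2). The median was -0.03, beside -0.003 for all genes. Between SUS and RES mice, 0 of 10 passed against 0.0% of all genes, and 0 had an unadjusted p below 0.05 against 3.67%, also by limma and DESeq2. For the difference of the defeat effect between housings, 0 of 10 passed against 0.0%, and 0 had an unadjusted p below 0.05 against 6.47%, also by limma and DESeq2.

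The intervals of the pooled comparisons limit how far the members can have moved, if mice are taken as independent. Mice of a cage entered as separate samples, so that the intervals for housing may be too narrow. Between EE and SH they ran from 0.889-fold for C4b to 1.13-fold for Aqp4, and between defeated and control mice from 0.9-fold for Slc1a3 to 1.13-fold for C4b. Between SUS and RES mice they ran from 0.894-fold for Serpina3n to 1.11-fold for Vim. Of the pooled comparisons, the difference of the defeat effect between housings was the least precise, with intervals from 0.809-fold for C4b to 1.18-fold for Aqp4. Comparisons of single groups allowed more, down to 0.805-fold for C4b in EE RES against SH RES mice. Upward they allowed 1.24-fold for C4b in SH RES against SH control mice.

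**Figure D3:**
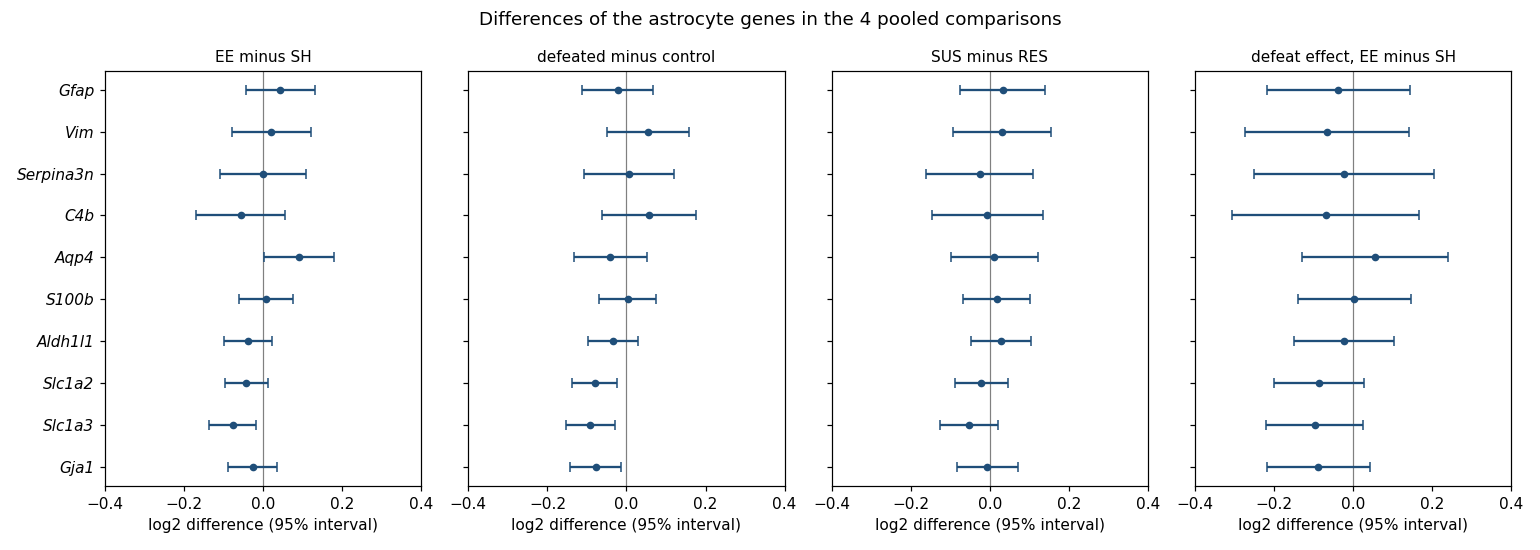
Log2 differences of the 10 astrocyte genes with their 95% intervals from edgeR in the 4 pooled comparisons, with a line at 0. Intervals that leave out 0 belong to Aqp4 and Slc1a3 for EE minus SH and to Slc1a2, Slc1a3 and Gja1 for defeated minus control mice, and none of these passed over all genes.

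In 9 comparisons of single groups no member passed either. Within SH, 0 of 10 members passed for SUS against control (0.0328% of all genes), RES against control (0.0%) and SUS against RES (0.0%), and 0 had an unadjusted p below 0.05 against 2.78%, 3.51% and 4.88% of all genes. Within EE, 0 of 10 passed in each of the same comparisons against 0.0% of all genes in each. At an unadjusted p below 0.05, Slc1a2 and Slc1a3 were lower in EE SUS than in EE control mice (2 of 10, against 7.9% of all genes), and Slc1a2, Slc1a3 and Gja1 were lower in EE RES than in EE control mice (3 of 10, against 7.91%), while 0 differed between EE SUS and EE RES (3.52%). The largest of these in size was Gja1 in EE RES against EE control mice, at -0.15 on the log2 scale (standard error 0.05, interval -0.26 to -0.05, adjusted p = 0.538, edgeR). These comparisons within EE share their control mice.

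Between EE and SH, 0 of 10 members passed in control (0.00547% of all genes), RES (0.273%) or SUS mice (0.00547%). At an unadjusted p below 0.05, 0 members differed in control mice against 5.02% of all genes, 2 in RES mice against 16.0%, and 1 in SUS mice against 7.36%. In RES mice these were Slc1a3 at -0.16 (standard error 0.05, adjusted p = 0.137, edgeR) and Gja1 at -0.13 (standard error 0.06, adjusted p = 0.257, edgeR), both lower in EE. In SUS mice it was Aqp4 at 0.16 (standard error 0.07, adjusted p = 0.665, edgeR), higher in EE. In these 9 comparisons limma and DESeq2 gave the same numbers of members at an unadjusted p below 0.05 and called 0.

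Members of the wider astrocyte programs were read from lists. Of 15 further genes of unperturbed astrocytes and 17 of astrocyte transport and coupling, 0 passed for housing or defeat by edgeR, with medians for EE minus SH of 0.02 and 0.03 and for defeat of -0.05 and -0.04 on the log2 scale. At an unadjusted p below 0.05 they numbered 3 and 4 for housing, against 17.6% of all genes, and 4 and 3 for defeat, against 4.81%. The lists share 5 genes, Glul, Atp1b2, Slc4a4, Gjb6 and Mlc1. The smallest p among them was that of Slc4a4, a bicarbonate transporter, at -0.08 for EE minus SH (standard error 0.02, adjusted p = 0.0664, edgeR). Of 40 genes induced in reactive astrocytes, 34 were tested and 2 rose in EE, against 2.42% of all genes called in either direction, with a list median of 0.04 and 9 at an unadjusted p below 0.05 against 17.6%. For defeat 0 passed, and 6 had an unadjusted p below 0.05 against 4.81% of all genes.

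The reactive genes that rose in EE encode small heat shock proteins. Hspb1 was at 3.22 CPM in EE and 2.16 CPM in SH as means of the group means, a log2 difference of 0.58 (standard error 0.10, adjusted p = 0.000455, edgeR). Cryab, which oligodendrocytes also express, was at 27.9 and 23.6 CPM, a log2 difference of 0.25 (standard error 0.05, adjusted p = 0.00595, edgeR). Of 9 oligodendrocyte markers 2 rose in EE, against 2.42% of all genes called, and 8 had an unadjusted p below 0.05 against 17.6%, with a list median of 0.27 and summed levels of 1010 to 2434 CPM in SH and 1034 to 2250.0 CPM in EE mice. Among these, Mbp, myelin basic protein, rose by 0.25 (standard error 0.07, adjusted p = 0.0468, edgeR). The part of oligodendrocyte RNA in the rise of Cryab was not tested.

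Of 27 genes of STAT3 and cytokine receptor signalling, 1 fell in EE, against 2.42% of all genes called, and 4 had an unadjusted p below 0.05, against 17.6%. For defeat 0 passed and 3 had an unadjusted p below 0.05, against 4.81% of all genes. The gene that fell was Il1r1, the interleukin 1 receptor, at 30.7 CPM in EE and 36.7 CPM in SH, a log2 difference of -0.26 (standard error 0.07, adjusted p = 0.041, edgeR). In the dentate granule cell list 2 of 10 genes fell in EE, against 2.42% of all genes called. In this list 6 genes had an unadjusted p below 0.05, against 17.6%. Those that fell were Tdo2 by 0.28 and Dsp by 0.30 on the log2 scale (adjusted p = 0.0214 and 0.0281, edgeR). The part of dentate granule cells in the fall of Il1r1 was not tested. Of 22 complement genes 20 were tested and 0 passed. At an unadjusted p below 0.05 they numbered 6 for housing, against 17.6% of all genes, and 1 for defeat, against 4.81%. The smallest p was that of C1s1 (0.39 for EE minus SH, standard error 0.15, adjusted p = 0.147, edgeR). In 12 intermediate filament genes and 14 tested paralogs of the members 0 passed in either comparison. For housing 1 and 3 of them had an unadjusted p below 0.05, against 17.6% of all genes. For defeat these 2 lists had 3 and 0 such genes, against 4.81%. Their smallest p-values belonged to Nefh, a neurofilament (0.25, adjusted p = 0.0561), and Gjc3, an oligodendrocyte connexin (0.20, adjusted p = 0.0676, edgeR), both for EE minus SH.

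For housing, 1 of 6 oligodendrocyte precursor genes rose (Olig2, 0.25, adjusted p = 0.0108, edgeR) and 1 of 8 endothelial genes rose (Flt1, 0.23, adjusted p = 0.0186, edgeR), against 2.42% of all genes called. In these lists 1 and 6 genes had an unadjusted p below 0.05, against 17.6% of all genes. For defeat, 5 of 5 blood genes rose, against 0.0438% of all genes called, with a list median of 1.09. Among them, Hbb-bs, a beta globin, rose by 1.09 and Alas2, a haem synthesis enzyme, by 1.13 (adjusted p = 4.08e-05 and 4.97e-05, edgeR). Of 9 thalamus genes 8 had an unadjusted p below 0.05 for defeat, against 4.81% of all genes, with a median of 0.46 and 0 passing, and Prkcd had the smallest p (0.76, adjusted p = 0.759, edgeR). Lists of radial glia-like cells, CA1 and CA3 pyramidal cells, microglia, pericytes and mural cells, meningeal fibroblasts, choroid plexus and ependymal cells had 0 passing. This held for housing and for defeat, against 2.42% and 0.0438% of all genes called. In this order the lists held 10, 7, 7, 9, 7, 8, 8 and 6 tested genes. For housing 1, 0, 3, 2, 3, 3, 0 and 1 of them had an unadjusted p below 0.05, against 17.6% of all genes. For defeat these lists had 0, 0, 1, 1, 3, 1, 3 and 2 such genes, against 4.81%. Their genes with the smallest p were Lpar1 (0.22) for housing and, for defeat, Pou3f1 (-0.25), Bok (0.19), P2ry12 (-0.10), Abcc9 (0.20), Igfbp2 (-0.15), Clic6 (-1.37) and Ccdc153 (-1.58), with adjusted p-values from 0.0586 to 0.987 by edgeR. The radial glia-like list, which shares its cell type with Gfap, Vim and Slc1a3, had medians of -0.01 for housing and -0.04 for defeat.

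Within groups, many of the members varied together from mouse to mouse. Correlations were taken over 54 mice on log2 CPM after each group's mean was removed, in 45 pairs, with two-sided permutation tests of 100000 resamples adjusted over the pairs, and points of a pair share the punch, the library and the CPM total. Of the 45 pairs, 27 passed an adjusted p of 0.05 by Pearson's r, of which 25 were positive and 2 negative. The highest was S100b with Aldh1l1, at Pearson's r = 0.75 and Spearman's rho = 0.73 (permutation p = 1e-05 each, the smallest these resamples give, adjusted p = 9e-05 and 0.000112), with r = 0.67 when the 2 mice most distant in S100b were left out. Aqp4 with Gja1, both at the endfeet, had r = 0.74 and rho = 0.74 (permutation p = 1e-05 each, adjusted p = 9e-05 and 0.000112), and r = 0.66 without the 2 mice farthest in Aqp4. Gfap went with Aqp4 at r = 0.63 and rho = 0.66 (permutation p = 1e-05 each, adjusted p = 9e-05 and 0.000112; r = 0.68 without 2 mice). The transporters Slc1a2 and Slc1a3 had r = 0.59 and rho = 0.60 (permutation p = 1e-05 each, adjusted p = 9e-05 and 0.000112; r = 0.53 without 2 mice). Of the pairs that passed, Aqp4 with Aldh1l1 lost most of its size without 2 mice, with r = 0.37 (permutation p = 0.00583, adjusted p = 0.0117) and rho = 0.31 (permutation p = 0.0209, adjusted p = 0.0361), and with r = 0.19 without the 2 mice farthest in Aqp4.

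**Figure D4:**
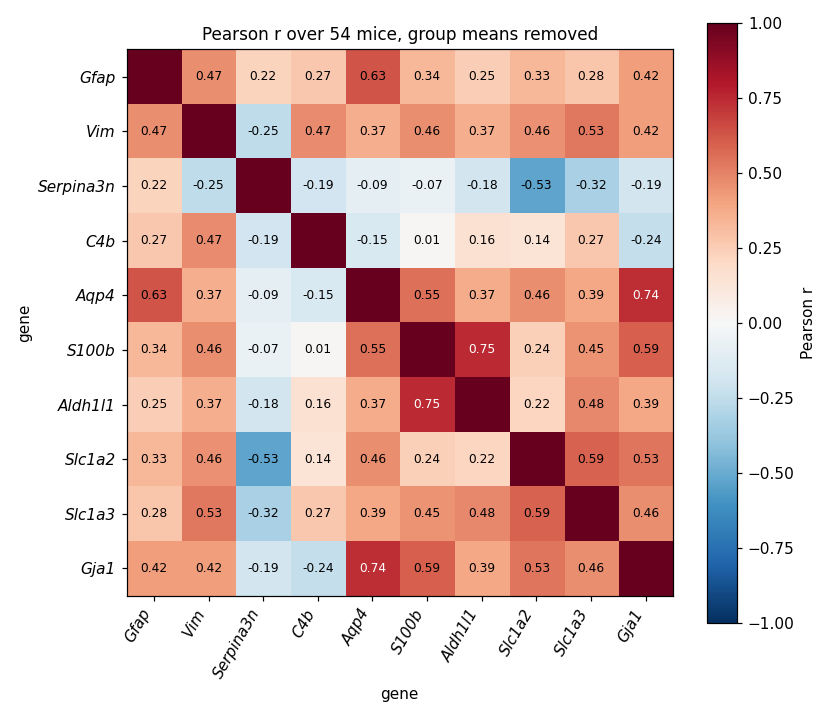
Pearson's r between the astrocyte genes over 54 mice after removal of the group means, with the value written in each cell and red for positive. Serpina3n is blue with 8 of the 9 other genes, at -0.53 with Slc1a2 and -0.32 with Slc1a3.

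Both negative pairs that passed involved Serpina3n, a protease inhibitor, with Slc1a2 at r = -0.53 and rho = -0.59 (permutation p = 7e-05 and 2e-05, adjusted p = 0.00035 and 0.00018; r = -0.54 without the 2 mice farthest in Serpina3n) and with Slc1a3 at r = -0.32 and rho = -0.34 (permutation p = 0.0174 and 0.0129, adjusted p = 0.0289 and 0.0253; r = -0.37 without 2 mice). Serpina3n also went with a measure of the libraries, the share of multimapping read pairs, at r = 0.50 and rho = 0.52 (permutation p = 0.00012 and 6e-05, adjusted p = 0.0048 and 0.0024 over 40 relations of 10 genes with 4 library measures; r = 0.47 without 2 mice). Slc1a2 went with that share in the opposite direction, at r = -0.40 and rho = -0.42 (permutation p = 0.00266 and 0.00178, adjusted p = 0.0333 and 0.0341; r = -0.39 without 2 mice). Multimapping pairs made up 8.7% to 12.09% of a library, and their part in the negative pair was not tested. Of the 40 relations, 8 passed by Pearson's r, all with the shares of multimapping pairs or of pairs outside annotated genes, for Serpina3n, S100b, Aldh1l1 and Slc1a2. Serpina3n also rose with CA3 pyramidal cell markers, at r = 0.44 and rho = 0.48 (permutation test, adjusted p = 0.00349 and 0.00174 over 150 relations with marker lists). Slc1a3 fell with these markers, at r = -0.40 and rho = -0.36 (adjusted p = 0.0106 and 0.0281). For Slc1a2 the values were r = -0.29 and rho = -0.32 (adjusted p = 0.0838 and 0.0499). The part of CA3 cells in the negative pairs was not tested.

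**Figure D5:**
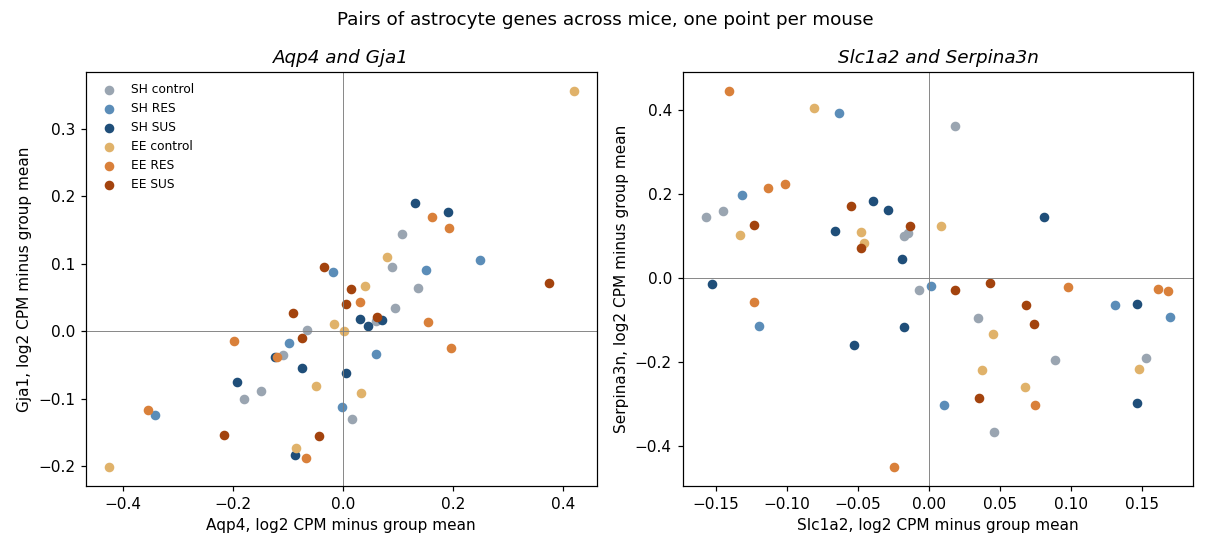
Gja1 against Aqp4 and Serpina3n against Slc1a2, each as log2 CPM minus the mean of its group, with a point for each of 54 mice colored by group. The first pair rises together (r = 0.74) and the second runs in opposite directions (r = -0.53), and mice of all 6 groups are spread along both.

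Relations of the members with lists of cell markers were computed in the same way for 15 lists, and 53 of the 150 relations passed an adjusted p of 0.05, of which 46 were positive. Every member other than Serpina3n and C4b went with the score of 15 other astrocyte genes, from r = 0.45 for Aqp4 (rho = 0.44, permutation p = 0.00051 and 0.00097, adjusted p = 0.00264 and 0.00485; r = 0.35 without 2 mice) to r = 0.71 for S100b (rho = 0.69, permutation p = 1e-05 each, adjusted p = 0.000187 and 0.000167; r = 0.67 without 2 mice). The same 8 members also went with microglia markers, from r = 0.39 for Aldh1l1 (rho = 0.46, permutation p = 0.0034 and 0.00048, adjusted p = 0.0115 and 0.00277; r = 0.44 without 2 mice) to r = 0.64 for Slc1a3 (rho = 0.66, permutation p = 1e-05 each, adjusted p = 0.000187 and 0.000167; r = 0.63 without 2 mice). For Gfap, Vim and Aqp4 the r with microglia markers, at 0.47, 0.57 and 0.52, was no lower than that with the astrocyte score, at 0.46, 0.54 and 0.45, and the differences were not tested. Markers of radial glia-like cells also went with 8 members by Pearson's r, of which Serpina3n was negative, at r = -0.36 (rho = -0.33, permutation p = 0.00815 and 0.0162, adjusted p = 0.0252 and 0.0442; r = -0.42 without 2 mice). The members that did not pass with them were C4b, at r = -0.04 (permutation test, adjusted p = 0.849), and Gfap, at r = 0.27 (adjusted p = 0.108). S100b and Aldh1l1 were lower where dentate granule cell markers were higher, at r = -0.50 (rho = -0.49, permutation p = 9e-05 and 0.00017, adjusted p = 0.000643 and 0.00111; r = -0.44 without 2 mice) and r = -0.45 (rho = -0.38, permutation p = 0.00074 and 0.0046, adjusted p = 0.00347 and 0.0164; r = -0.33 without 2 mice). S100b, which oligodendrocytes also express, rose with their markers at r = 0.52 (rho = 0.46, permutation p = 4e-05 and 0.00055, adjusted p = 0.0004 and 0.00306; r = 0.48 without 2 mice). Aldh1l1 rose with them too, at r = 0.44 (rho = 0.34, permutation p = 0.00078 and 0.0116, adjusted p = 0.00349 and 0.0341; r = 0.26 without 2 mice). With oligodendrocyte precursor markers S100b had r = 0.58 (permutation test, adjusted p = 0.000214). These also went with Aldh1l1 at r = 0.48, Slc1a2 at 0.44, Gja1 at 0.42 and Aqp4 at 0.40 (permutation test, adjusted p of 0.00979 or lower). S100b passed as well with pericyte and mural cell markers (r = 0.48) and with ependymal markers (r = 0.46). Vim, which vessel cells also express, rose with endothelial markers at r = 0.65 (rho = 0.65, permutation p = 1e-05 each, adjusted p = 0.000187 and 0.000167; r = 0.59 without 2 mice). Endothelial markers also went with S100b and Aldh1l1 at r = 0.51 each, Slc1a2 at 0.42 and Slc1a3 at 0.37 (permutation test, adjusted p of 0.0196 or lower). The part of these cell types in the relations was not tested.

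The genes most like each member, up to 3 for each, are given as a description, by Pearson's r over the 54 mice with group means removed. They were sought among the 18273 genes tested that are not members, so that no member could be named for another. Between members, Aqp4 with Gja1 had r = 0.739, above every gene named here for either of them except Cd63 for Gja1. Gfap was most like Il6st, which encodes the receptor chain gp130 (r = 0.69), then Csrp1 (0.63) and Padi2 (0.60). Genes most like Vim included Crip1 (r = 0.80) and Ahnak (0.77), and those most like C4b included Vwf, the von Willebrand factor of endothelium (r = 0.64), and Flna (0.63). Serpina3n was most like Agtpbp1 (r = 0.81), Pdhb (0.80), a subunit of pyruvate dehydrogenase, and Ube2g2 (0.78), none of them on a list used here. Aqp4 was most like Elovl5 (r = 0.74), Id3 and Ptn (0.72 each), and Gja1 like Cd63 (0.77), Arhgap5 and Hapln1 (0.69 each). S100b and Aldh1l1 shared Serpine2 as the most similar gene (r = 0.81 and 0.78), followed by Abhd3 (0.81) and S100a1 (0.80), the latter a paralog of S100b, and by Plin3 (0.72) and Ndrg2 (0.71). Slc1a2 was most like Slc7a2 (r = 0.75), Gna13 (0.75) and Ndnf (0.74), and Slc1a3 like Fam213a (0.82), Prex2 (0.81) and Bmpr1b (0.78), a receptor for bone morphogenetic proteins. Il6st, the gene closest to Gfap, was itself at 121 CPM in EE and 116 CPM in SH, a log2 difference of 0.06 (standard error 0.02, adjusted p = 0.143, edgeR).

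One mouse combined high Vim and C4b with high complement genes. It was singled out after the values were seen, as the mouse with the highest summed level of the 22 complement genes. EE SUS mouse 7 had a sum of 447 CPM, against 301.8 CPM in the next mouse and a median of 256 CPM. Its Vim (44.8 CPM) and C4b (53.2 CPM) were the highest of all 54 mice, each just above the next at 43.0 and 52.8 CPM. Serpina3n in this mouse, at 64.6 CPM, ranked 12 from the highest, and its Gfap, at 274 CPM, was close to the median of 270.2 CPM. Its Aqp4, at 186 CPM, and Gja1, at 171 CPM, ranked 44 and 50 from the highest. C1qa, a complement chain of microglia, at 82.4 CPM (median 40.7), and Itgam, an integrin of microglia, at 58.1 CPM (median 27.1), belong to the 22 genes that chose this mouse. Lcn2, a secreted protein of reactive astrocytes that is not among the 22 and was named for its value here, was at 23.4 CPM (median 0.42), the highest of all 54 mice. Without this mouse 0 of 10 members passed in any comparison, by edgeR.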

How the data were processed

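The authors deposited raw gene counts, 1 file for each of 55 libraries from 54 mice. Their methods name quality filtering of reads, alignment by STAR to GRCm38 (version not given in the sources used here) and featureCounts, but the deposited count files carry the 3 strand columns that STAR itself writes. The reverse-strand column was used, since forward-strand counts were 3.51% to 4.13% of stranded counts. Rows that name no gene were left out, namely unmapped (13.89% to 19.85% of read pairs), multimapping (8.7% to 12.09%), unannotated (19.89% to 28.79%) and ambiguous pairs (0.84% to 1.12%). Both runs of EE control mouse 9 were summed. Symbols, coordinates and exon lengths came from GENCODE M21, which matched 44671 of 45318 identifiers, and promoters from RefSeq.

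Counts were normalized by TMM, low-count genes were removed with filterByExpr, and all 54 mice entered a single quasi-likelihood fit of edgeR 4.0.16 (R 4.3.3) with a mean per group and Benjamini-Hochberg adjustment over 18283 genes. Housing was the mean of the EE minus the mean of the SH groups, and defeat the mean of RES and SUS minus control, averaged over housings. Log2 CPM used a prior count of 2. Limma 3.58.1 and DESeq2 1.42.0 were alternatives. P-values measure the spread between mice, which the methods draw from several litters, and neither litter nor cage could be entered because the labels give none. The methods also state a lower range of replicates for the CSDS groups than the 7 to 10 mice per group analysed here. Alternatives changed the normalization, tool, filter, strand, block, covariates and mice. Correlations and figures used Python 3.11.15, NumPy 2.4.6, pandas 2.3.3, SciPy 1.17.1 and matplotlib 3.10.9, and files were read with version 1.17.8 of data.table.

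The members and lists were chosen with earlier results of these data known. Named genes were all members, tested paralogs of the members, and the 3 genes outside the members most like each member. From each list, up to 4 genes with the smallest p among those called per comparison were named as well. Where a list had no call, the gene with the smallest p was named. Some genes that this rule names are not reported here. C1qa, Itgam, Lcn2 and EE SUS mouse 7 were added after their values were seen.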

Additional observations from a re-analysis of the deposited data

Results flagged for a closer look

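In 60 sets of values (10 genes in 6 groups), the highest or lowest mouse was compared with its nearest neighbor by Dixon's criterion, which chance alone meets in about 5% of groups, and 2 mice met it. Aqp4 in EE SUS mouse 6, at 279.8 CPM, was separated from the next of the 9 mice at 225.4 CPM, and the gap was 0.579 of the range of the group. Without this mouse the EE minus SH difference of Aqp4 was 0.07 on the log2 scale (unadjusted p = 0.0919, adjusted p = 0.382, edgeR). Slc1a3 in SH RES mouse 1, at 883 CPM, was separated from the next of the 7 mice at 812.6 CPM, with a gap of 0.587 of the range.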

How the results depend on the processing

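With another normalization, test, low-count filter, strand, run or covariate, 12 settings in all, and with each of the 54 mice left out in turn, 0 members were called in every comparison, with 1 exception. With the score of other astrocyte genes as a covariate, 1 member was called for housing, Slc1a3 at -0.09 (adjusted p = 0.017, edgeR), and the cause was not tested. At the criterion of the study, an unadjusted p below 0.05 with a fold change above 1.3, no member was called, and the test over 6 groups could give no value because it has no single fold change. Of 40 member differences in the pooled comparisons, 14 changed sign under at least 1 alternative, all of them with a main value within 0.04 of 0 on the log2 scale and none called. The largest shift under any alternative was 0.08, and 0.06 when a mouse was left out. Replicate numbers were not taken to pair the mice. In 126 pairs of mice with the same number the mean correlation of deviations was 0.0241, with 29 above 0.1. In 1086 pairs with different numbers it was -0.00223, with 236 above 0.1. These means cannot exclude that mice with the same number were handled together. With the replicate number as a block, 0 members were called, and Slc1a3 differed by -0.08 for housing (adjusted p = 0.109) and by -0.09 for defeat (adjusted p = 0.765). Over all genes the replicate block gave 581 calls for housing against 442 without it, DESeq2 gave 680, sample quality weights in limma 741, no low-count filter 242, and the criterion of the study 112. For defeat there were 8 calls, against 13 by DESeq2, 12 with the astrocyte score and 88 at the criterion of the study. C4b, Serpina3n and Vim varied most between mice, but wide intervals were not confined to them. On the log2 scale the intervals reached 0.18 in Aqp4 for housing and 0.18 in C4b for defeat. In Slc1a3 they reached -0.14 for housing and -0.15 for defeat, and in S100b no further than 0.08 in size for either. Differences within these bounds were not excluded.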
